A study of Mus musculus with 4 samples.

Results

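Semaphorins, plexins and neuropilins form a family of guidance ligands and receptors, and their transcripts were measured here in mouse cerebral cortex at embryonic day 15. The genes were chosen by symbol alone: semaphorins of classes 3 to 7, plexins of the A, B, C and D types, both neuropilins, and Plxdc1 and Plxdc2, which are named for a plexin domain. The rule found 31 of the 13289 genes analysed: 19 semaphorins, 8 plexins, 2 neuropilins and 2 Plxdc genes. Sema3d and Plxnb3 were not analysed here. The measurement was RNA-seq of polyadenylated RNA from cortex of fresh brain, in 2 control libraries (WT in their titles) and 2 Lhx2 cKO libraries, where cKO is read as conditional knockout. Lhx2 is a LIM-homeodomain factor of cortical progenitors, and the comparison asks how the transcripts of the embryonic cortex differ when that gene is targeted. The Cre driver, the deleted part of Lhx2, the strain, the sex and the number of embryos per library are not given in the sources used here. Nothing says that the libraries of a group came from separate embryos, so p-values do not measure a known spread between embryos. They rest on the spread between these libraries, pooled largely across genes by the fit (median prior degrees of freedom 38.7). A gene's p-value therefore reflects the spread of its own libraries only in part.

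Semaphorins carry a conserved sema domain. Those of class 3 are secreted, those of classes 4 to 6 span the membrane, and Sema7a is held on the cell surface by a lipid anchor. Plexins are the main receptors: they signal inside the cell through a GTPase-activating domain, and most class 3 ligands reach A plexins only with a neuropilin as the binding partner. In the growing cortex the family is known for steering axons to the callosum and away from wrong targets, for orienting radial migration, and for guiding interneurons and blood vessels.

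Library totals ranged from 22294237 to 24609627 counts, so that 3 counts, taken as the floor, equal 0.122 to 0.135 CPM, the count scaled to library depth. The lowest count of any family gene in any library was 15, and all 31 passed the low-count filter. Lhx2 itself was at 316 and 287 CPM in control and at 239 and 247 CPM in Lhx2 cKO, a log2 difference (Lhx2 cKO minus control) of -0.31 (SE 0.0976, adjusted p 0.0191 in edgeR's quasi-likelihood test), lower in both Lhx2 cKO libraries. Without control 1, Lhx2 cKO 1 or Lhx2 cKO 2 that adjusted p was 0.176, 0.102 or 0.0538. Since the deleted part is not given, gene-level counts of Lhx2 check the labels only in part.

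The family did not move as a block. Of the 31 genes, 17 did not pass the test. Among the others, 3 ligands, 1 neuropilin and 1 plexin fell, and 4 ligands, 3 plexins and both Plxdc genes rose. Their log2 differences ran from -2.30 for Sema5a to 1.49 for Plxdc1. A gene is called when its adjusted p is under 0.05 in edgeR's quasi-likelihood test across all genes. By this rule 14 of the 31 genes (45.2%) were called, 9 higher and 5 lower in Lhx2 cKO, where 20.8% of the 13288 genes tested were called, 11.6% higher and 9.17% lower. Among genes averaging 10 CPM or more, a level chosen after the values were seen, 12 of 26 family genes were called and 22.4% of all 9637 genes. The median log2 fold change was 0.08 over the family and 0.003 over all genes tested. A change of at least 1.5-fold was seen in 6 called family genes (19.4%) and in 8.88% of all genes. A change of at least 2-fold was seen in 2 of them (6.45%), Sema5a and Plxdc1, against 3.36% of all genes, and 0.918% of all genes were lower by that much, among them Sema5a. The groups did not overlap in 22 of the 31 genes, against 59.3% of all genes tested.

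**Figure D1:**
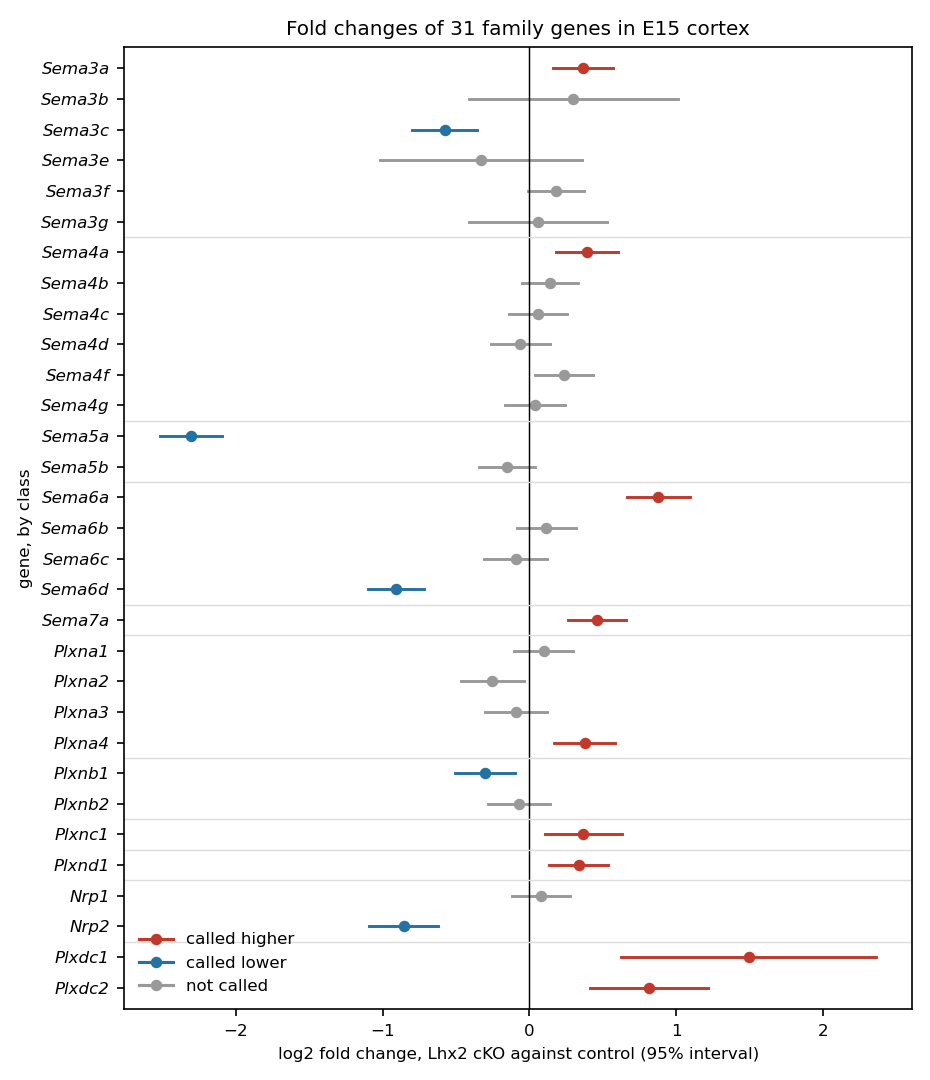
Log2 difference between Lhx2 cKO and control for the 31 family genes, grouped by class from Sema3a to Plxdc2. Points are edgeR estimates, bars are 95% intervals, red genes were called higher, blue genes lower and grey genes were not called. Sema5a at -2.30 stands far to the left of the other genes.

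Sema5a showed the largest change of the family. Class 5 semaphorins carry thrombospondin repeats beside the sema domain and can attract or repel axons, depending on the context. Sema5a (ENSMUSG00000022231.11) was at 157 and 182 CPM in control and at 32.8 and 35.7 CPM in Lhx2 cKO. Both Lhx2 cKO libraries lay far below both controls, and 20.2% of the control level was left. The log2 fold change was -2.30 (SE 0.105, 95% interval -2.52 to -2.09, adjusted p 8.85e-21), the 5th smallest p of all genes tested and the 10th lowest log2 fold change. Its paralogue Sema5b was at 124 and 134 CPM in control and at 115 and 116 CPM in Lhx2 cKO. These groups did not overlap either, but the difference of -0.15 was not called (95% interval -0.34 to 0.04, adjusted p 0.266). On a scale per length, RPKM, which is CPM divided by the gene length in kilobases, the Sema5a share of both class 5 genes went from 33.2% ± 1.12 in control to 10.1% ± 0.486 in Lhx2 cKO (SD, n = 2).

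The stretches just upstream of these paralogues are shown because one gene lost most of its transcript while the other was not called. They are the 250 bases before the RefSeq gene start, 5′ to 3′, on the plus strand of GRCm38.p6, at chr15:32244563-32244812 for Sema5a and chr16:35541112-35541361 for Sema5b. Capitals mark GGGCGG, the GC box bound by Sp factors, on either strand.
Sema5a: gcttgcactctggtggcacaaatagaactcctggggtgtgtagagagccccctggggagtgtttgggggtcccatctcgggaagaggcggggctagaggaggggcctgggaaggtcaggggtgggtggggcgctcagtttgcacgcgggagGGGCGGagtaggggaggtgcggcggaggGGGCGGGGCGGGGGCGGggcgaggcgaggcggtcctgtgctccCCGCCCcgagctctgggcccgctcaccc
Sema5b: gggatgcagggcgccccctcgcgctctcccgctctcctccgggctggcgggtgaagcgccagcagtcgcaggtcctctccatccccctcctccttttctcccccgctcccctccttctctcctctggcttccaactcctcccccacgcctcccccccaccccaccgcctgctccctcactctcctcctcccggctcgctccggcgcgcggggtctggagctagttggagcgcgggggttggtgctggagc
The Sema5a stretch held 5 GC boxes, some of them overlapping, and the Sema5b stretch held 0, while both had a G and C content of 72.0%. For 24 of the 31 genes RefSeq gave such stretches, 35 in all. A GC box on either strand was in 77.1% of the 35, in 57.5% of the 13482 stretches of genes in the table and in 32.7% of all 32851. TAATTA, letters read by many homeodomain factors, was in 0 of the 35, in 2.41% of the stretches of genes in the table and in 4.84% of all, both strands counted. TAATTG on either strand was in 1 of the 35, at Sema4d, which was not called, in 4.22% of those of genes in the table and in 7.17% of all. These matches describe letters only.

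In class 6, Sema6d and Sema6a changed in opposite directions. These transmembrane ligands bind A plexins: Sema6a pairs mainly with Plxna2 and Plxna4, and Sema6d with Plxna1. Sema6d (ENSMUSG00000027200.18) was at 206 and 221 CPM in control and at 115 and 113 CPM in Lhx2 cKO. It fell by 0.91 on the log2 scale (SE 0.0954, adjusted p 8.50e-10), leaving 53.2% of the control level, with no overlap between groups. Sema6a (ENSMUSG00000019647.17) was at 26.0 and 29.3 CPM in control and at 49.97 and 51.8 CPM in Lhx2 cKO. Sema6a thus rose to 184% of control, a log2 difference of 0.88 (SE 0.108, adjusted p 3.13e-08). Within each library Sema6d exceeded Sema6a per length by 6.59 and 6.27 times in control, and by 1.91 and 1.81 times in Lhx2 cKO. The 2 members most abundant per length were not called. Sema6c was at 661 and 563 CPM in control and at 560 and 587 CPM in Lhx2 cKO, a log2 difference of -0.09 (95% interval -0.31 to 0.12), and Sema6b had 0.11 (-0.09 to 0.31), and the groups overlapped for both genes.

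Among the secreted class 3 ligands, Sema3c fell and Sema3a rose. Sema3c (ENSMUSG00000028780.14), which attracts cortical axons in the corpus callosum through Nrp1, was at 72.5 and 87.1 CPM in control and at 46.5 and 60.4 CPM in Lhx2 cKO. The libraries of each group were spread, yet the groups did not overlap, and the log2 fold change was -0.58 (SE 0.111, adjusted p 1.22e-04). Leaving out Lhx2 cKO 1 gave -0.40, leaving out Lhx2 cKO 2 gave -0.78, and Sema3c was called whichever library was left out. Sema3a (ENSMUSG00000028883.20), the classic repellent of cortical axons, was at 53.4 and 57.8 CPM in control and at 66.8 and 76.4 CPM in Lhx2 cKO. Both Lhx2 cKO libraries were the higher ones, with a log2 difference of 0.36 (SE 0.102, adjusted p 0.00759). That call was lost without control 1 (adjusted p 0.101) or Lhx2 cKO 2 (0.188).

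The other 4 class 3 genes were not called. Sema3f, a ligand of Nrp2 and the most abundant of the class, was at 159 and 158 CPM in control and at 176 and 182 CPM in Lhx2 cKO. Its groups did not overlap, but the difference of 0.18 (95% interval -0.01 to 0.37) had an adjusted p of 0.178. Sema3b, Sema3e and Sema3g were scarce, between 1.72 and 6.08 CPM in every library, and their 95% intervals were wide: -0.41 to 1.01 for Sema3b, -1.02 to 0.36 for Sema3e and -0.41 to 0.53 for Sema3g.

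Class 4 semaphorins are transmembrane ligands that act mainly on B plexins. Of 6 members 1 was called (16.7%), Sema4a, a share near the 20.8% of all genes tested. Sema4a (ENSMUSG00000028064.18), a ligand of B plexins and Plxnd1, was at 36.4 and 33.6 CPM in control and at 45.6 and 46.3 CPM in Lhx2 cKO. Both Lhx2 cKO libraries were above both controls, a log2 difference of 0.39 (SE 0.105, adjusted p 0.00536). Without control 2 its adjusted p was 0.0593. Sema4c, the most abundant member per length, was at 302.1 and 301.9 CPM in control and at 301 and 328 CPM in Lhx2 cKO. Sema4c and Sema4g, which act through Plxnb2, had log2 fold changes of 0.06 (95% interval -0.14 to 0.26) and 0.04 (-0.16 to 0.24). Sema4d, the ligand of Plxnb1, was at -0.06 (-0.26 to 0.14), and Sema4b was at 0.14 (-0.05 to 0.33). Sema4f was at 62.6 and 62.3 CPM in control and at 73.2 and 74.1 CPM in Lhx2 cKO. The groups of Sema4f did not overlap, but its log2 difference of 0.24 was not called (adjusted p 0.0777).

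Sema7a was the abundant semaphorin that rose. It promotes axon growth through beta-1 integrin and also binds Plxnc1. Sema7a (ENSMUSG00000038264.9) was at 212 and 218 CPM in control and at 277 and 315 CPM in Lhx2 cKO. The 2 controls nearly coincided, both below the Lhx2 cKO libraries, and the log2 fold change was 0.46 (SE 0.0981, adjusted p 4.68e-04). The call held whichever library was left out, with log2 fold changes from 0.36 to 0.55.

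**Figure D2:**
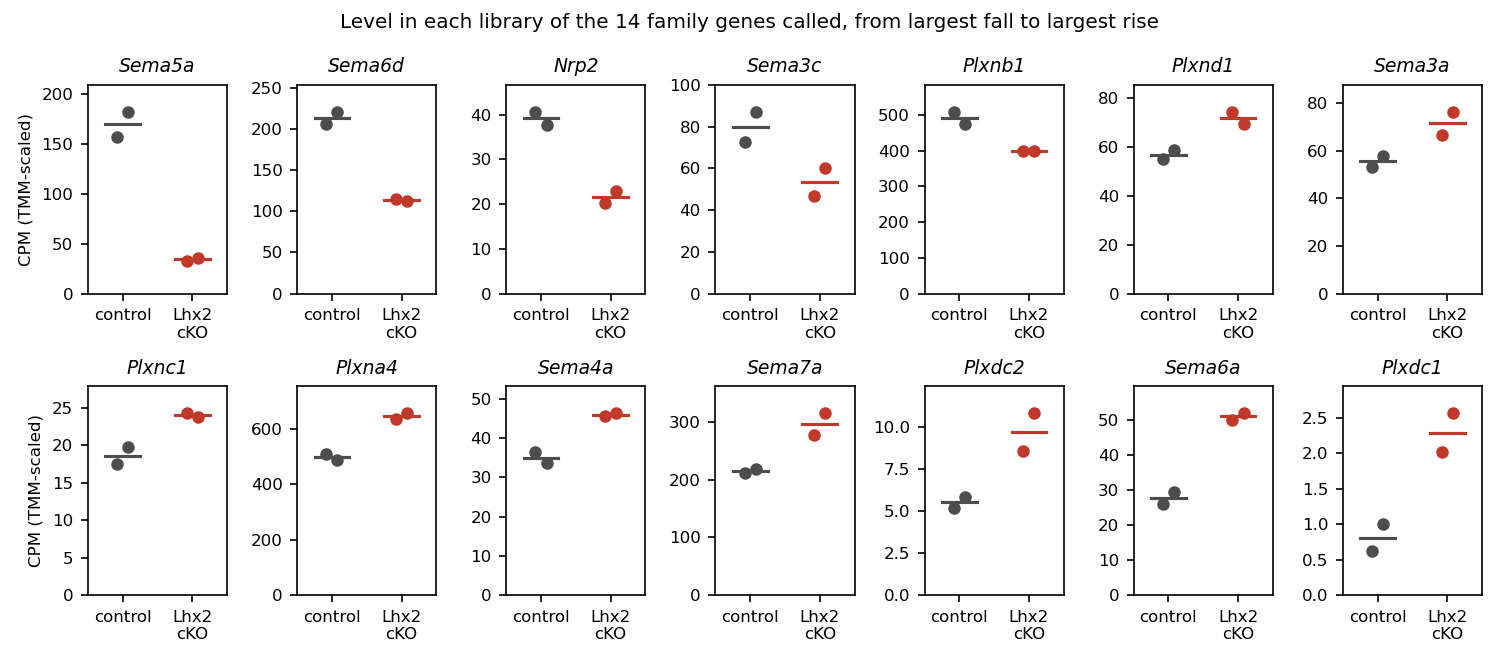
CPM scaled with TMM in each library for the 14 family genes called, from the largest fall (Sema5a) to the largest rise (Plxdc1). Points are libraries, bars are group means of 2 libraries, every axis starts at 0, and in none of the 14 genes do the groups overlap.

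Of the neuropilins, Nrp2 fell and Nrp1 did not pass the test. Nrp1 is the binding partner for Sema3a and Sema3c, and Nrp2 for Sema3f and Sema3c; both also bind vascular growth factors. Nrp2 (ENSMUSG00000025969.16) was at 40.7 and 37.7 CPM in control and at 20.3 and 22.9 CPM in Lhx2 cKO, so that 55.2% was left. The groups were well apart, with a log2 difference of -0.86 (SE 0.115, adjusted p 2.49e-07). Nrp1 was at 257 and 285 CPM in control and at 294 and 278 CPM in Lhx2 cKO. Its groups overlapped, and the log2 difference of 0.08 had a 95% interval of -0.12 to 0.28. Per length, Nrp1 exceeded Nrp2 by 7.65 and 9.17 times in the control libraries and by 17.5 and 14.7 times in the Lhx2 cKO libraries.

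Among the A plexins only Plxna4 was called. Plxna4, a receptor of Sema6a, Sema6b and, with Nrp1, Sema3a, was at 509 and 486 CPM in control and at 636 and 657 CPM in Lhx2 cKO. Both Lhx2 cKO libraries were higher, a log2 difference of 0.38 (SE 0.104, adjusted p 0.00688), and without control 2 the adjusted p was 0.0727. Plxna2, the other receptor of Sema6a, was at 663 and 672 CPM in control and at 523 and 598 CPM in Lhx2 cKO. The groups of Plxna2 did not overlap, but its log2 difference of -0.25 (SE 0.106) had an adjusted p of 0.0869 in edgeR, against 0.0394 in DESeq2. Plxna3, the most abundant plexin per length, was at 698 and 723 CPM in control and at 669 and 665 CPM in Lhx2 cKO. Its difference of -0.09 (95% interval -0.30 to 0.12) was not called, nor was that of Plxna1, at 0.10 (-0.10 to 0.30). Part of the annotated exons of Plxna1, 10.7%, overlaps the antisense gene Gm26811, and the use of strand in counting is not given in the sources used here. In all, 7 family genes share exonic bases with another gene. The share was 7.27% for Sema4c and 2.68% for Plxnb1, both on the opposite strand, and smaller for Nrp1, Plxna4, Plxnc1 and Sema4a.

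Of the 2 B plexins, receptors of class 4 ligands, Plxnb1 fell. It was at 509 and 475 CPM in control and at 399 and 400 CPM in Lhx2 cKO, where both libraries nearly coincided. The log2 fold change was -0.30 (SE 0.101, adjusted p 0.029). The call was lost without control 1 (adjusted p 0.186), Lhx2 cKO 1 (0.0929) or Lhx2 cKO 2 (0.102). Plxnb2 was at 581 and 593 CPM in control and at 540 and 578 CPM in Lhx2 cKO. The groups of Plxnb2 did not overlap, but its difference of -0.07 (95% interval -0.28 to 0.14) was not called.

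Plxnc1 and Plxnd1 rose modestly. Plxnc1, the plexin that binds Sema7a, was at 17.5 and 19.7 CPM in control and at 24.3 and 23.8 CPM in Lhx2 cKO. Its log2 difference of 0.37 (SE 0.130) was close to the threshold (adjusted p 0.0373). The call was lost with library totals (0.0576) and in DESeq2 (0.0965), and without control 1 (0.308), Lhx2 cKO 1 (0.119) or Lhx2 cKO 2 (0.117). Plxnd1, the receptor of Sema3e in blood vessels, was at 55.1 and 58.9 CPM in control and at 74.5 and 69.3 CPM in Lhx2 cKO. The groups of Plxnd1 did not overlap, with a log2 difference of 0.34 (SE 0.0995, adjusted p 0.0121), and the adjusted p was 0.134 without control 1 and 0.105 without Lhx2 cKO 1. Endothelial markers rose beside it: 6 of 9 were called higher and 0 lower, where 11.6% of all genes tested were called higher. The summed level of these markers was 183 to 223 CPM in control and 275 to 320 CPM in Lhx2 cKO. Their part in the Plxnd1 result was not tested. In bulk tissue fewer or more cells of a type cannot be told apart from less or more RNA per cell, for this and every other gene given here.

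Both Plxdc genes were called higher. They encode transmembrane proteins first known from tumour vessels and bind the secreted factor PEDF rather than semaphorins. Plxdc2 was at 5.16 and 5.84 CPM in control and at 8.57 and 10.8 CPM in Lhx2 cKO, a log2 difference of 0.82 (SE 0.200, adjusted p 0.00229). Plxdc1 was at 0.619 and 1.0003 CPM in control and at 2.02 and 2.57 CPM in Lhx2 cKO, a log2 difference of 1.49 (SE 0.430, adjusted p 0.00962). Plxdc1 rested on few reads, 15 and 25 counts in control and 46 and 59 in Lhx2 cKO. Without Lhx2 cKO 2 neither gene was called (adjusted p 0.0942 for Plxdc2 and 0.112 for Plxdc1), and without control 1 the adjusted p of Plxdc1 was 0.116. Serpinf1, which encodes PEDF, was not analysed here. Beside the endothelial markers given above, microglia markers were higher: 9 of 10 were called higher and 0 lower, where 11.6% of all genes tested were called higher. The summed level of the microglia markers was 134 CPM in both control libraries against 276 and 299 CPM in Lhx2 cKO. The part of either marker list in the Plxdc result was not tested.

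Levels can be compared between genes on the scale per length. Over the 4 libraries the order of the semaphorins by mean RPKM began with Sema6c at 99.9, Sema7a at 77.5, Sema4c at 67.1, Sema4g at 50.3, Sema6b at 42.02 and Sema3f at 32.4. The ranges of Sema6c and Sema7a overlapped, and so did those of Sema7a and Sema4c, while from Sema4c to Sema3f each gene lay above the next in every library. The scarce end held Sema3g at 1.18, Sema3b at 0.494 and Sema3e at 0.263 RPKM, each above the next in every library. Sema5a went from 9.06 ± 0.960 to 1.83 ± 0.110 RPKM and Sema6d from 20.2 ± 1.02 to 10.8 ± 0.123 RPKM (SD, n = 2). Among plexins Plxna3 at 87.4 and Plxnb2 at 74.2 RPKM led, followed by Plxnb1 at 46.5, Plxna4 at 40.6, Plxna2 at 35.8 and Plxna1 at 27.6 RPKM. The ranges of Plxnb1 and Plxna4, and of Plxna4 and Plxna2, overlapped. Plxnd1 at 8.83 and Plxnc1 at 2.55 RPKM were far lower.

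**Figure D3:**
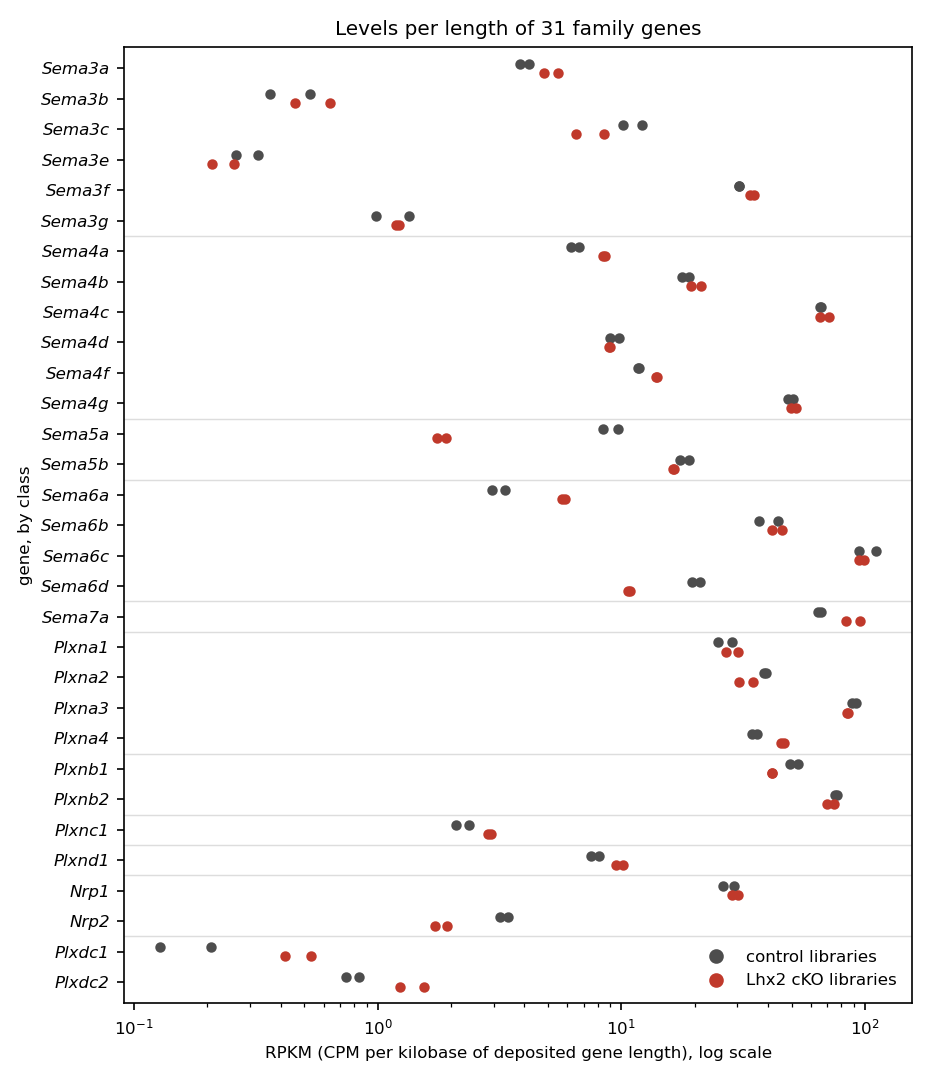
RPKM of the 31 family genes on a log axis, with 2 control libraries in grey and 2 Lhx2 cKO libraries in red for each gene. Levels run from Plxdc1 and Sema3e at the low end to Sema6c, Plxna3 and Sema7a at the high end.

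Ligands were set beside the receptors they are known to bind, in 55 textbook pairs, of which 48 had both partners analysed. Both partners were called in 9 pairs, 1 partner in 22 and neither in 17. Of single genes, 45.2% of the family and 20.8% of all genes tested were called. Pairs share genes, so these counts are descriptions, and whether they exceed what the single calls would give was not tested. Both partners rose in 4 pairs: Sema7a with Plxnc1, Sema6a with Plxna4, Sema3a with Plxna4, and Sema4a with Plxnd1. The log2 fold changes of the first of these were 0.46 for the ligand and 0.37 for the plexin. Both fell in 1 pair, Sema3c (-0.58) with Nrp2 (-0.86). In 4 pairs the partners went in opposite directions: Sema6d fell while Plxna4 rose, Sema3c fell while Plxna4 and Plxnd1 rose, and Sema4a rose while Plxnb1 fell. The calls of Plxnc1, Plxna4, Plxnd1, Plxnb1, Sema3a and Sema4a did not hold in every alternative run. Of the 9 pairs, only Sema3c with Nrp2 had both partners called in all of them. The ligand with the largest fall, Sema5a, had no called partner among those analysed: Plxna1 and Plxna3, its known receptors in the retina, were at 0.10 and -0.09, and its other listed receptor, Plxnb3, was not analysed.

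The make-up of neuropilins, A plexins and class 3 and class 6 semaphorins shifted, with summed levels at 0.940 to 1.03 times control. Both neuropilins together had 31.02 ± 1.88 RPKM in control and 31.1 ± 1.05 RPKM in Lhx2 cKO (SD, n = 2), while the Nrp2 share was 10.7% ± 1.23 and 5.89% ± 0.688. Nrp1 held 89.3% of that sum in control and 94.1% in Lhx2 cKO, so the sum says little about Nrp2. The 4 A plexins together had 191 ± 1.01 and 192 ± 6.24 RPKM, while the Plxna4 share was 18.5% ± 0.509 in control and 23.9% ± 0.224 in Lhx2 cKO. Class 3 summed to 47.5 ± 1.71 RPKM in control and 49.1 ± 2.64 in Lhx2 cKO, and class 6 to 167 ± 15.4 and 157 ± 6.18. In class 3 the Sema3c share was 23.5% ± 2.21 in control and 15.2% ± 1.98 in Lhx2 cKO, and in class 6 that of Sema6d was 12.2% ± 1.74 and 6.87% ± 0.349. None of these shares overlapped between groups. Those of Nrp2, Plxna4, Sema3c and Sema6d belong to genes that were called, whose CPM did not overlap either. Of all genes tested, 59.3% had CPM that did not overlap between groups. As a ratio to control, the sum of class 5 was the lowest of any class, 0.668, at 27.3 ± 1.97 and 18.2 ± 0.213 RPKM. With 2 libraries against 2 an exact two-sided permutation test cannot go below a p of 0.33, so shares were not tested.

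**Figure D4:**
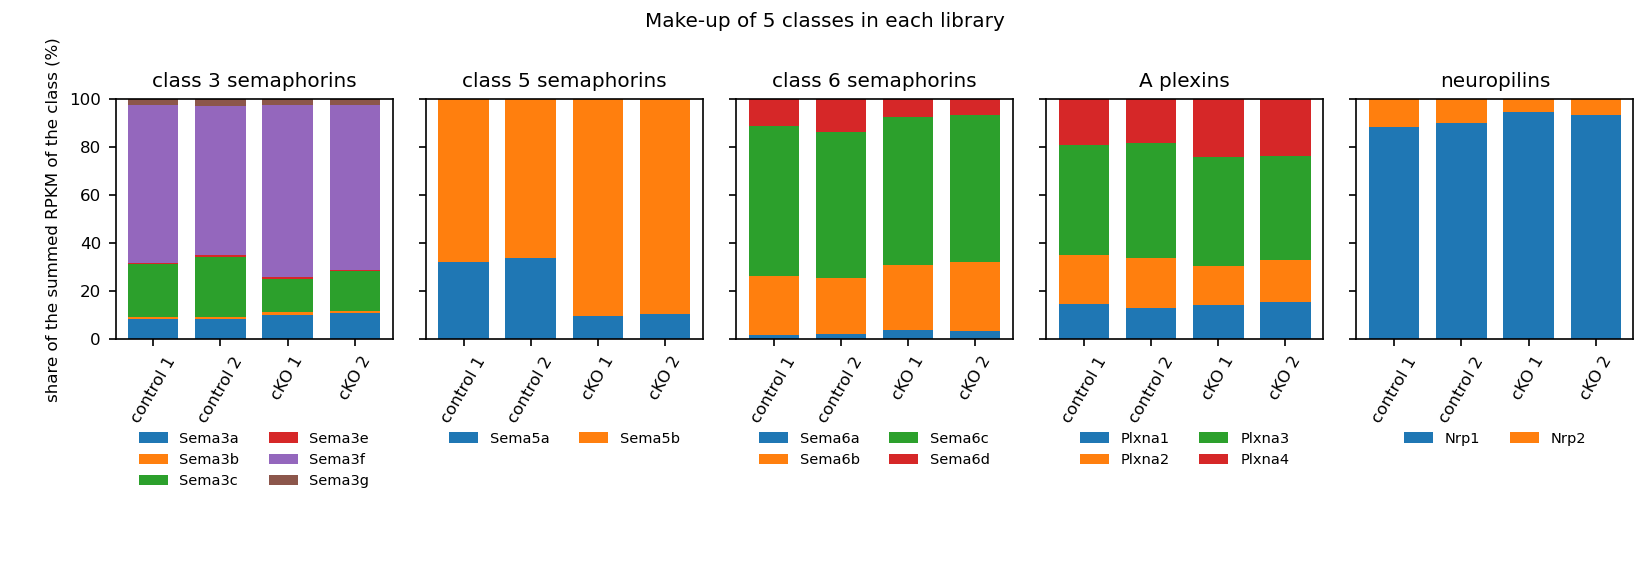
Share of each gene in the summed RPKM of its class, as stacked bars per library, for class 3, class 5 and class 6 semaphorins, A plexins and neuropilins. The Sema5a, Sema6d and Nrp2 bars are smaller and the Plxna4 bar is larger in both Lhx2 cKO libraries than in both controls.

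Of 38 genes listed as effectors of plexin signals inside the cell, 5 (13.2%) were called, against 20.8% of all genes tested, 2 higher and 3 lower, with a median log2 difference of -0.03. Mical2, a flavoprotein of the family that oxidises actin downstream of plexins, was at 17.8 and 20.6 CPM in control and at 54.7 and 51.4 CPM in Lhx2 cKO, a rise of 1.47 (SE 0.112, adjusted p 1.61e-13). The groups of Mical2 were far apart. The other gene called higher was Rgma at 0.34, a cell-surface ligand of neogenin that is no intracellular effector, though the list holds it. Mical1 (-0.07) and Mical3 (-0.11) were not called, and neither were the collapsin response mediators Crmp1 (0.25) and Dpysl2 (0.09).

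Of 14 other receptors and co-receptors 5 (35.7%) were called, all higher, with a median of 0.12, where 20.8% of all genes tested were called and 11.6% were called higher. These were the phosphatase Ptprj (0.52), the adhesion molecules Nrcam (0.43) and Chl1 (0.37), which join neuropilins in the membrane, and the vascular receptors Kdr (0.49) and Flt1 (0.46), both also among the endothelial markers. L1cam, the Nrp1 partner for Sema3a responses, was at 0.03, and Itgb1, the integrin chain used by Sema7a, was at -0.06, neither called. Of 6 genes analysed from a list of other ligands of the family's receptors, 1 (16.7%) was called, near the 20.8% of all genes tested. That gene was Cspg4 at 0.38, which is also among the oligodendrocyte precursor markers. Vegfa, a ligand of Nrp1, was at 0.03.

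Markers of progenitors and of other cell types also differed between the groups, with some lists going both ways. For the counts below, 20.8% of all genes tested were called, 11.6% higher and 9.17% lower. Intermediate progenitor markers were lower, with 6 of 10 called lower, 0 higher and a summed level of 927 and 928 CPM in control against 584 and 619 CPM in Lhx2 cKO. Of 11 radial glia markers 5 were called lower and 1 higher, with summed levels of 869 to 905 and 790 to 816 CPM. Upper-layer markers had 5 called lower and 2 higher of 10, and deep-layer markers 1 lower and 3 higher of 11. Interneuron markers had 4 called higher and 0 lower of 10, with 260 to 291 CPM in control and 385 to 389 CPM in Lhx2 cKO. Most of that rise came from Npy, with means of 31.2 and 74.2 CPM, and Sst, with 42.3 and 89.2 CPM. The other 6 were not called, and groups overlapped for Lhx6 (-0.06), Gad1 (-0.07) and Dlx1 (0.07). Cajal-Retzius markers had 5 called higher of 7. Oligodendrocyte precursor markers had 5 called higher of 7, with 56.9 to 64.0 and 98.7 to 105 CPM. Mural cell markers had 1 called in each direction of 6 (33.3%). Of 5 meningeal markers 1 was called (20%), Col1a1 at -3.00, a share near that of all genes tested. The marker part in the falls of Sema5a, Sema6d, Sema3c and Nrp2 and in the rises of Sema6a, Sema3a, Sema4a and Plxnc1 was not tested. Cortical layer markers were present in every library, those of deep layers at a sum of 1023 to 1063 CPM, as the tissue label says. Red blood cell markers had 5 called lower and 1 higher of 6, and of 12 hem and choroid plexus markers 4 were analysed, 2 called higher and 1 lower. No marker analysed was at 0 in any library, and the other markers listed were not analysed here.

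**Figure D5:**
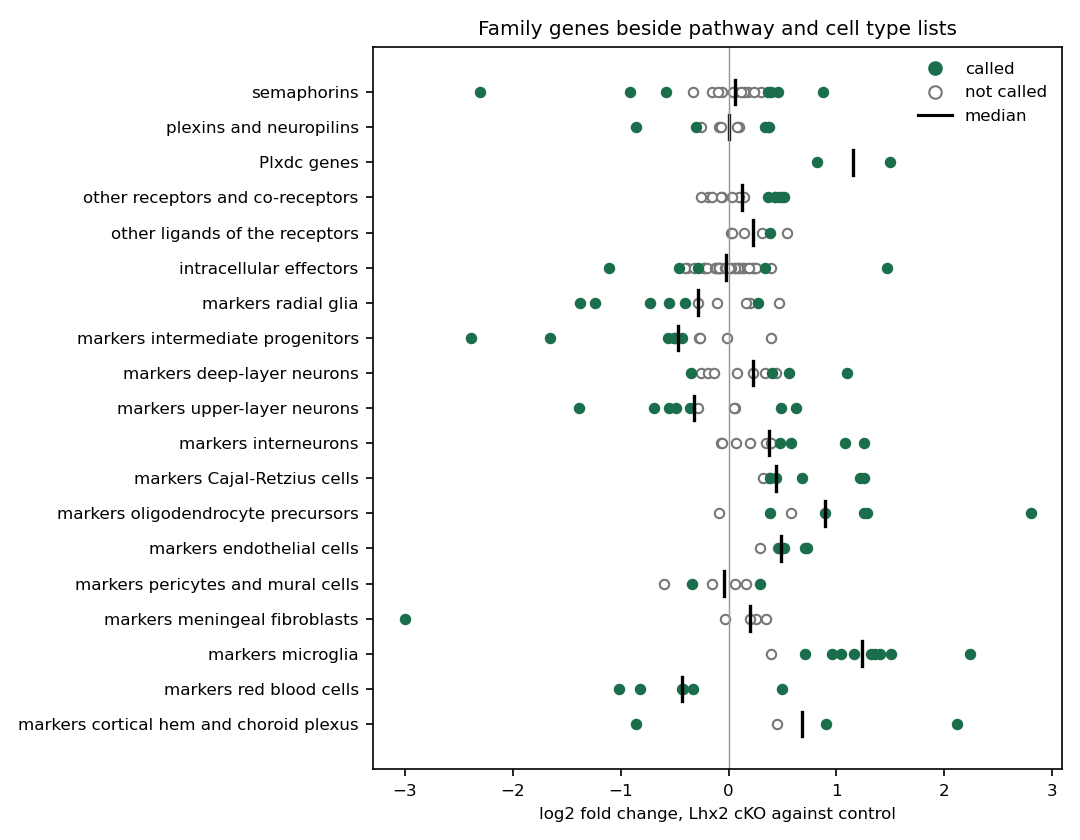
Log2 fold changes of the family genes beside the genes of the pathway and cell type lists, 1 row per list. Filled points were called, open points were not, and black bars are medians: 0.06 for semaphorins, -0.47 for intermediate progenitor markers and 1.24 for microglia markers.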

How the data were processed

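The deposited table holds raw read counts per gene for each library, made by the authors, with Trim Galore, Subread, featureCounts, edgeR and genome build mm39 named in the submitters' processing notes without versions. The authors' deposited log2 fold change and mean log2 CPM, their p-value and adjusted p-value columns and their -log10 adjusted p-value column are used only where named. The gene length in bases is deposited, without its annotation. The lowest row total is 102 counts.

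Counts were tested with edgeR 4.0.16 in R 4.3.3: TMM scaling, filterByExpr (minimum count 10, which removed 1 gene), glmQLFit and glmQLFTest, with Benjamini-Hochberg adjustment over 13288 genes, two-sided, without covariates. The standard error is the absolute log2 fold change over the square root of F. CPM are TMM-scaled. The procedure was tested on simulated data. Libraries of a group were no copies of each other: chi-square over its degrees of freedom was 13.9 in control and 14.3 in Lhx2 cKO. Family genes, lists and alternatives were chosen with earlier results of these data known. All family genes are named; those called, and the most abundant of a class, get values per library. From lists, called genes by smallest p were to be named; the effector list departs from this rule, and other list genes named were chosen after their values were seen. Alternatives were other scalings and filters, a replicate block, DESeq2 1.42.0, limma-voom (limma 3.58.1), a threshold of 0.01 and each library left out. Upstream stretches come from RefSeq on GRCm38.p6, and coordinates are of that build, not mm39. Exon overlaps were read from GENCODE on GRCm38. Some effector genes counted in their list are not reported here by name.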

Additional observations from a re-analysis of the deposited data

How the results depend on the processing

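The counts of called semaphorins, 4 higher and 3 lower, held under each scaling, filter, block, test and threshold with all libraries. At an adjusted p under 0.01 the calls over all genes fell from 2758 to 1697, those of plexins and neuropilins to 1 higher and 1 lower, by construction of the threshold. A mean count of at least 50 left 1 Plxdc gene called, since Plxdc1 was removed. Leaving out a library gave 1633 to 2396 calls over all genes, 3 to 4 semaphorins higher and 3 lower, 1 to 2 plexins and neuropilins higher and 1 to 2 lower, 0 to 2 Plxdc genes, and a Lhx2 log2 fold change from -0.38 to -0.25. These fits assume that the lone library of a group varies like the other group. The fewest calls, 1633, came without Lhx2 cKO 2, and 1790 came without control 1. No called family gene reversed its direction in any alternative run. Sema5a, Sema6d, Nrp2, Sema3c, Sema6a and Sema7a were called in every alternative. Library totals shifted the median of all genes most, by -0.0104. Replicate numbers share only a number: replicate differences in control and Lhx2 cKO correlated at -0.00976 across genes. A replicate block gave 2874 calls over all genes, and the family counts were 4 and 3 for semaphorins, 3 and 2 for plexins and neuropilins and 2 for Plxdc genes; Lhx2 was at -0.31 with an adjusted p of 0.0131.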

Other observations

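In the authors' deposited table the 31 family genes had the same direction as in the fit given here. That table has Sema5a at -2.31 (adjusted p 6.14e-94), Sema6d at -0.92 (8.34e-18), Nrp2 at -0.87 (1.63e-10) and Sema6a at 0.87 (5.09e-12) on the log2 scale. The authors' deposited table marks Sema5a, Sema6d, Sema3c and Nrp2 as down and Sema6a, Plxdc1 and Plxdc2 as up, and no other family gene. Sema7a, at 0.45 with an adjusted p of 1.38e-04 in the authors' deposited table, is not marked. The smallest absolute log2 fold change among the marked family genes is that of Sema3c, at -0.59. Calls in the fit given here have no fold threshold, so calls and marks are not like for like.

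Paralogue ratios within a library do not depend on the scaling between libraries. Sema3a per length was 0.379 and 0.342 times Sema3c in control and 0.738 and 0.651 times in Lhx2 cKO. Plxna2 was 1.07 and 1.14 times Plxna4 in control and 0.676 and 0.748 times in Lhx2 cKO, so that the order of these receptors of Sema6a was reversed between the groups. Plxnb1 was 0.704 and 0.645 times Plxnb2 in control and 0.595 and 0.557 times in Lhx2 cKO.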
